A study of Mus musculus with 16 samples.

Results

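The genes Plbd1, Amz1, Nes and Aqp1, were examined in the 2 subsets of tumor-associated macrophages (TAMs) of the mouse peritoneal cavity, those that carry the surface protein Tim-4 (Tim-4+ TAMs) and those that do not (Tim-4- TAMs). They are 4 of the 16861 genes tested and of the 55604 genes listed. The members were selected on their large falls in Tim-4+ TAMs, measured in the libraries described here. Their differences between the subsets are therefore given as descriptions, without a test, and nothing is read from their direction. What the choice did not use was the way each gene varied from library to library inside a subset, its neighbors, its gene family and its promoter, and these are given in turn.

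Both subsets came from female C57BL/6 mice that carried ID8 tumors in the peritoneum, at 6 to 7 weeks after the cells were given. ID8 is a line of mouse ovarian epithelial cancer cells that grows on the peritoneal lining and causes ascites. Tim-4+ TAMs were taken with antibody-coated magnetic beads against Tim-4, and Tim-4- TAMs were taken from the remaining cells with beads against F4/80, a macrophage surface protein, after density separation to remove most tumor and dead cells. RNA depleted of ribosomal RNA was sequenced as 1 library for each subset in each of 4 pairs, numbered 793, 784, 783 and 779, with 2 lanes for each of the 8 libraries. Neither subset carried a genetic change or a drug treatment by the labels, and no mice without tumors were compared. The labels do not say how many mice entered a library, so the spread between libraries may hold both biological and technical parts.

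Plbd1 encodes a hydrolase of the phospholipase B-like family that is found in granules and lysosomes of myeloid cells. Amz1 encodes a zinc metallopeptidase of the archaelysin family, Nes encodes nestin, an intermediate filament protein known from neural progenitors and also present in endothelial and muscle precursor cells, and Aqp1 encodes a water channel of red cells, kidney tubules, capillaries and the mesothelium that lines the peritoneum. Since the peritoneal cavity can hold macrophages that came from blood monocytes, beside mesothelium and tumor, each member was set beside Ccr2, the chemokine receptor by which monocytes enter tissue, and Msln, which encodes the mesothelial and ovarian tumor surface protein mesothelin. In bulk RNA, fewer cells of a type and less RNA per cell cannot be told apart.

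The promoters are shown first, because the members were chosen for a shared difference in level and the sequence at their starts is a property that the choice did not use. Each runs from 250 bases before to 50 bases after the start of the RefSeq transcript (build GRCm38.p6), 5′ to 3′ on the strand of the gene. Capitals mark matches, on either strand, to 1 of 6 motifs that were searched. The regions are chr6:136661844-136662143 (minus strand) for Plbd1, chr5:140723877-140724176 (plus strand) for Amz1, chr3:87970843-87971142 (plus strand) for Nes and chr6:55336049-55336348 (plus strand) for Aqp1. The Aqp1 window ends before the GENCODE start of that gene (chr6:55336432), so the 2 annotations place its start differently.
Plbd1: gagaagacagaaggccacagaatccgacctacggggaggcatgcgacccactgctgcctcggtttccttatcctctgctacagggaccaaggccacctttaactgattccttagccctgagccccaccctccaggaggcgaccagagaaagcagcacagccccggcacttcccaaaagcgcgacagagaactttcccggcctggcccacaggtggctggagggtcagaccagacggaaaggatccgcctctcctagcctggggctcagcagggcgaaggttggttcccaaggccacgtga
Amz1: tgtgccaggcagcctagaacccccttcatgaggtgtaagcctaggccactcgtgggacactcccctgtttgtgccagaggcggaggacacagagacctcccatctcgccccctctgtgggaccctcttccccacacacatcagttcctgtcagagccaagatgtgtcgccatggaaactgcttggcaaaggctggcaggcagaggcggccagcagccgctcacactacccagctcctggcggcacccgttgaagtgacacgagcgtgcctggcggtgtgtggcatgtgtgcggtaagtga
Nes: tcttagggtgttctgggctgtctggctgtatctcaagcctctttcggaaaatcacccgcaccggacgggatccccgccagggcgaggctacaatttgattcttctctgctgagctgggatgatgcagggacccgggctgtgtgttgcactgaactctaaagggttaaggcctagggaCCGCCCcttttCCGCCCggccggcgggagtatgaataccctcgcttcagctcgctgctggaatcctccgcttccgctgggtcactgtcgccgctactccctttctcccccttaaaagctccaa
Aqp1: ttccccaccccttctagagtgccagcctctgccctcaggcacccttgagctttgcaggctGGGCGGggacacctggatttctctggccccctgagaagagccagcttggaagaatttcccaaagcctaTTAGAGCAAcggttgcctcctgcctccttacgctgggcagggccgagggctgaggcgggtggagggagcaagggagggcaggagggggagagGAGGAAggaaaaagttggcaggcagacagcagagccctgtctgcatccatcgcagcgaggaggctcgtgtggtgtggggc

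The motifs were TATAAA (the TATA box), GAGGAA (the core of PU.1 sites), CCAAT (the box of that name), TGANTCA (the AP-1 site), GGGCGG (the GC box) and TTGCNNNAA. The last holds the TTGC core of C/EBP sites but is spaced more widely than the full site, so it does not find that site. Matches to different motifs were allowed to overlap. In the Plbd1 and Amz1 promoters 0 of the 6 motifs had a match. The Nes promoter held 2 matches to the GC box, and 35.9% of 32544 mouse promoters of the same length held 1 or more. The Aqp1 promoter held 1 match each to the GC box, to the PU.1 core (28.1% of promoters) and to TTGCNNNAA (9.58% of promoters). The TATA box, the CCAAT motif and the AP-1 site, which 13.6%, 37.4% and 7.79% of promoters held, were matched in 0 of the 4 windows. The 4 windows thus shared none of the 6 motifs. The 4 windows were 61.3%, 61.7%, 58.7% and 62.7% G and C, in the order shown, against a median of 53.0% over all promoters. A match to letters is a description and not a binding site.

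Depth was similar across the study. The counts on genes totaled 53527928 to 57768202 in Tim-4+ libraries and 55618306 to 69594245 in Tim-4- libraries, and 3 counts, taken as the lowest level that can be seen, equalled 0.0431 to 0.0560 CPM of the library totals by counting error alone. Elsewhere CPM stands for counts relative to the TMM-scaled library size. Timd4, the gene of Tim-4, lay at 1161, 1744, 524 and 1166 CPM in the Tim-4+ libraries of pairs 793, 784, 783 and 779 and at 85.0, 11.1, 22.3 and 1.97 CPM in the Tim-4- libraries, so every library matched its label. Of 12 general macrophage markers, all were measured in both subsets, with Csf1r at 2775 ± 168 CPM in Tim-4+ and 2358 ± 365 CPM in Tim-4- libraries (SD, n = 4). In the tests across all genes, 976 genes (5.79% of those tested) were lower in Tim-4+ TAMs and 641 (3.8%) were higher, where a call asked for a 2-fold difference or more and an adjusted p below 0.05 (edgeR's quasi-likelihood test blocked by pair, Benjamini-Hochberg adjustment). Without the pairing these counts were 80 and 127, and without pair 784 they were 51 and 67. Without pair 779 they were 259 and 264, and without pair 793 the lower genes were 387. Scaling by total counts gave 1938 and 398, which took the share of higher genes among the calls from 39.6% to 17.0%.

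Plbd1 was the most abundant and the steadiest of the 4 genes. Plbd1 (ENSMUSG00000030214.7, chr6:136612070-136661928, minus strand, GRCm38) lay at 13.1, 12.6, 14.2 and 20.6 CPM in the Tim-4+ libraries of pairs 793, 784, 783 and 779. In the Tim-4- libraries of the same pairs it lay at 70.0, 91.2, 66.7 and 107 CPM. The subsets did not overlap, the highest level in both was in pair 779, and within either subset the highest library was no more than 1.64 times the lowest. Plbd1 was 5.55-fold lower in Tim-4+ TAMs by the fit (log2 fold change -2.47, standard error 0.13), and the log2 ratio in the 4 pairs was -2.47 ± 0.27 (mean and SD). Its counts ran from 623 to 7002 in a library.

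Amz1 was the least abundant per length, and pair 783 stood apart in it. Amz1 (ENSMUSG00000050022.16, chr5:140724127-140761439, plus strand) lay at 1.09, 1.1, 5.14 and 1.48 CPM in Tim-4+ libraries, in the same order of pairs. In Tim-4- libraries it lay at 12.0, 11.0, 34.4 and 13.3 CPM. Pair 783 held the highest level in both subsets, and the other 3 pairs lay close together, yet the lowest Tim-4- library was still above the highest Tim-4+ library. The fitted log2 fold change was -3.16 (standard error 0.19, 8.92-fold lower in Tim-4+ TAMs), and the pair log2 ratios had a mean of -3.14 ± 0.29 (SD, n = 4), so the elevation in pair 783 was shared by both of its libraries. The lowest library held 52 counts, and its lanes differed by 1.9-fold, the widest gap between lanes for a member.

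Nes differed from pair to pair by up to 6.13-fold in Tim-4- TAMs and 3.46-fold in Tim-4+ TAMs. Nes (ENSMUSG00000004891.16, chr3:87971078-87980451, plus strand) lay at 1.68, 4.3, 1.24 and 2.75 CPM in Tim-4+ libraries. In Tim-4- libraries it lay at 8.78, 53.9, 9.09 and 38.4 CPM. Pairs 784 and 779 were high and pairs 793 and 783 were low in both subsets, and the subsets did not overlap. The fitted log2 fold change was -3.2 (standard error 0.26, 9.19-fold lower in Tim-4+ TAMs), with pair log2 ratios of -2.36, -3.64, -2.84 and -3.79.

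Aqp1 showed the largest fitted difference and the widest spread of pair ratios. Aqp1 (ENSMUSG00000004655.5, chr6:55336432-55348555, plus strand) lay at 1.6, 1.9, 8.94 and 6.6 CPM in Tim-4+ libraries. In Tim-4- libraries it lay at 11.9, 39.4, 46.8 and 71.0 CPM. Pair 793 was the lowest in both subsets, pairs 783 and 779 were the highest, and the gap between the lowest Tim-4- library and the highest Tim-4+ library was narrow. The fitted log2 fold change was -3.26 (standard error 0.33, 9.55-fold lower in Tim-4+ TAMs), and the pair log2 ratios of -2.88, -4.35, -2.38 and -3.42 gave a mean of -3.26 ± 0.84 (SD, n = 4).

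**Figure D1:**
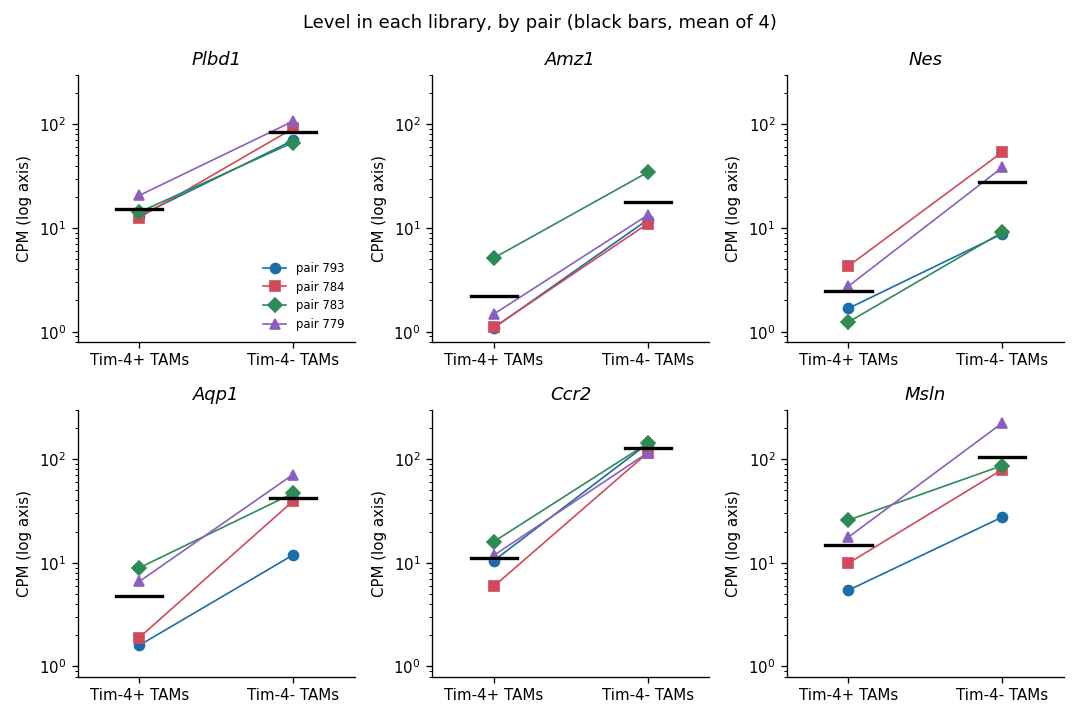
CPM on a log axis of the 4 members and of Ccr2 and Msln in each library, with lines joining the 2 libraries of a pair and black bars for the mean of 4 libraries. Every line rises from Tim-4+ to Tim-4- TAMs, and pair 783 is highest for Amz1 in both subsets while pairs 784 and 779 are highest for Nes.

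Each of the 4 members had its lower level in the Tim-4+ library of every pair, and all 4 had every Tim-4- library above every Tim-4+ library. Over all tested genes 5.92% had that separation, and since the members were picked for this difference, nothing is read from their count. Among the 8770 tested genes averaging 10 CPM or more, Aqp1 and Nes had the 2 next largest falls after Ccr2 (log2 fold change -3.61), and Fcrls, a macrophage Fc receptor-like gene, followed Nes at -3.2. Amz1 averaged 9.93 CPM and so was just under that level, where it would have come between Fcrls and Upk1b (-2.99), a urothelial and mesothelial uroplakin gene. Plbd1 had 30 steeper genes above it in the same ranking, with Igha, an antibody heavy chain gene, next above at -2.49 and Lhfp next below at -2.47. Under total-count scaling, which moved the median of all genes to -0.36, the fitted values were -2.83 for Plbd1 and -3.51 for Amz1, a move of about that shift. In lane 2 of the Tim-4- library of pair 779, fewer reads were set aside as matching several places than in the other lanes that record them (9.11%, against 20.26% or more), and on lane 1 alone the mean log2 ratios of the pairs were -2.48 for Plbd1, -3.2 for Amz1, -3.27 for Nes and -3.39 for Aqp1.

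**Figure D2:**
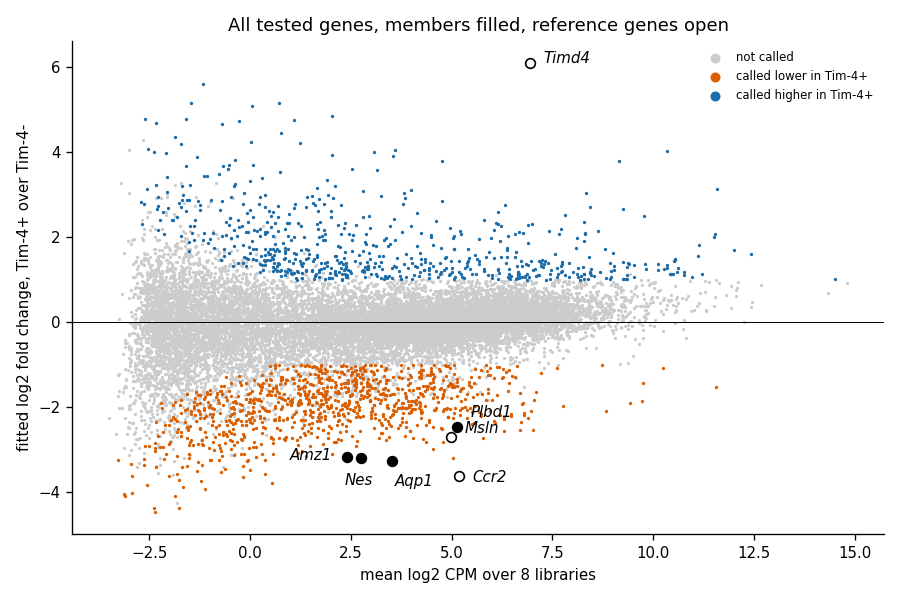
Fitted log2 fold change (Tim-4+ over Tim-4-) against mean log2 CPM over 8 libraries for the 16861 tested genes, with genes called lower in orange, genes called higher in blue, members as filled circles and Ccr2, Msln and Timd4 as open circles. The members lie between -2.47 and -3.26, near Ccr2 at -3.61 and Msln at -2.69.

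Per kilobase of exon the order of the levels in Tim-4- TAMs was Plbd1, Aqp1, Nes and Amz1. Plbd1 averaged 31.8 ± 7.27, Aqp1 16.1 ± 9.25, Nes 4.29 ± 3.49 and Amz1 2.64 ± 1.67 CPM per kb (SD, n = 4). The ranges of neighbors in this order overlapped, although Plbd1 was above Aqp1, and Aqp1 above Nes, in all 4 libraries, while Nes was above Amz1 in 2 of 4. In Tim-4+ TAMs the order was the same, with means of 5.74, 1.81, 0.389 and 0.329 CPM per kb, and there the range of Plbd1 did not overlap that of Aqp1.

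Whether a member followed Ccr2 or Msln was described by the root mean square (RMS) difference between their log2 CPM over the 8 libraries, each gene centered on its own mean. A value of 0 would mean the same profile, and smaller means more alike. Over 8 libraries this difference includes the fall for which the members were chosen, so it is given beside the same measure with each gene centered within each subset, where that fall no longer counts. Ccr2 and Msln were themselves 1.07 apart. Ccr2 lay at 10.5, 5.94, 16 and 11.8 CPM in Tim-4+ libraries and at 141, 115, 142 and 115 CPM in Tim-4- libraries, so it was nearly level within Tim-4- TAMs. Msln lay at 5.44, 9.92, 25.8 and 17.7 CPM in Tim-4+ libraries and at 27.6, 79.3, 86.5 and 223 CPM in Tim-4- libraries, and it varied far more from pair to pair. Both references had lower levels in Tim-4+ TAMs, with fitted log2 fold changes of -3.61 and -2.69, so the difference between the subsets is common to all profiles compared here.

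Aqp1 was the member closest to Msln. Its difference was 0.44 from Msln and 0.93 from Ccr2. Centered within each subset it was 0.33 from Msln and 0.92 from Ccr2, and of 8769 other genes averaging 10 CPM or more, 3 were then nearer to it than Msln and 1011 nearer than Ccr2. Aqp1 and Msln put the 4 pairs in the same order in both subsets, from low to high 793, 784, 783, 779 among Tim-4- libraries and 793, 784, 779, 783 among Tim-4+ libraries. The Aqp1 level was 19.2% to 54.1% of the Msln level in the 8 libraries, a 2.83-fold range, whereas it was 8.46% to 62.0% of the Ccr2 level, a 7.32-fold range. After Msln, the genes nearest to Aqp1 were Megf6 (0.49), a gene of the EGF repeat family, and Tnni1 (0.53), a troponin gene of slow muscle. In Tim-4- libraries Megf6 lay at 28.0, 61.7, 48.4 and 107 CPM and Tnni1 at 13.2, 47.3, 43.9 and 75.7 CPM, lowest in pair 793 and highest in pair 779 as Aqp1 was.

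That ordering rested on 1 pair. Without pair 793, where Aqp1 and Msln were both low, Aqp1 was 0.48 from Msln and 0.4 from Ccr2, so the nearer gene changed, and the range of its ratio to Ccr2 shrank to 1.94-fold. With each of the other 3 pairs left out it remained nearer to Msln, at 0.29 to 0.5 against 0.89 to 1.08 from Ccr2. The difference between the distances was -0.49 over all pairs. Taken from the 2 libraries of each pair alone, it had an SD of 0.8 between the 4 pairs. The value over all pairs was smaller in size than this SD, which describes single pairs and is not an error of that value.

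Amz1 lay 0.64 from Ccr2 and 0.95 from Msln over the 8 libraries. Within the subsets it was 0.6 from Ccr2 and 0.92 from Msln, and 415 of 8770 genes were nearer to it than Ccr2. Over the 8 libraries its nearest gene was Fcrls, at 0.26, with levels of 8.59, 7.12, 23.7 and 9.22 CPM in Tim-4+ and 76.2, 89.7, 168 and 82.7 CPM in Tim-4- libraries, and so with the same high pair 783 as Amz1. Gsn, which encodes the actin-severing protein gelsolin, was next at 0.6. Without pair 783 Amz1 was 0.37 from Ccr2 and 0.92 from Msln, and without pair 779 both distances were 0.72. The difference between its distances was 0.3, and taken from each pair alone it had an SD of 0.5 between pairs.

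Plbd1 lay 0.73 from Ccr2 and 0.82 from Msln, which hardly separated them. Centered within each subset, Plbd1 was 0.45 from Ccr2 and 0.82 from Msln. Its own spread there was only 0.28, and 5807 of 8769 genes were nearer than Ccr2. The spread of Ccr2 was 0.38 and that of Msln 0.96, so a gene that varies little can lie nearer to Ccr2 by that alone. From low to high, Tim-4- libraries ran 783, 793, 784, 779 for Plbd1 and 793, 784, 783, 779 for Msln. The order of Plbd1 was the reverse of that of Ccr2, but Ccr2 was nearly level there (115 to 142 CPM), so its order says little. Tim-4+ libraries ran 784, 793, 783, 779 for Plbd1, 784, 793, 779, 783 for Ccr2 and 793, 784, 779, 783 for Msln. Without pair 793 Plbd1 was 0.72 from Ccr2 and 0.55 from Msln over the 6 libraries left, which turned the order. The genes nearest to Plbd1 were 1700025G04Rik (0.43), Cacnb3, a calcium channel subunit gene (0.45), and Pdzd2 (0.46). Cacnb3 averaged 14.2 ± 4.52 CPM in Tim-4+ and 64.4 ± 38.8 CPM in Tim-4- libraries (SD, n = 4).

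Nes followed neither reference closely. It lay 1.27 from Ccr2 and 1.13 from Msln, and within the subsets it lay 1.25 from Ccr2 and 1.11 from Msln, with 6758 of 8769 genes nearer than Msln. A gene that did not vary within the subsets would lie at the spread of Nes there, 0.96, and so also count as nearer. Over the 8 libraries, the genes nearest to Nes were Itga3, an integrin subunit gene of epithelia (0.54), Eln, which encodes elastin (0.6), and Unc45b, a muscle myosin chaperone gene (0.6). Itga3 lay at 63.3, 276, 71.3 and 314 CPM and Eln at 184, 739, 76.5 and 842 CPM in Tim-4- libraries, and both were high in pairs 784 and 779 as Nes was. Without pair 783, where Msln was high and Nes low, Nes was 0.73 from Msln and 1.14 from Ccr2. Over all pairs the difference between its distances was -0.13, and taken from each pair alone it had an SD of 0.34 between pairs.

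**Figure D3:**
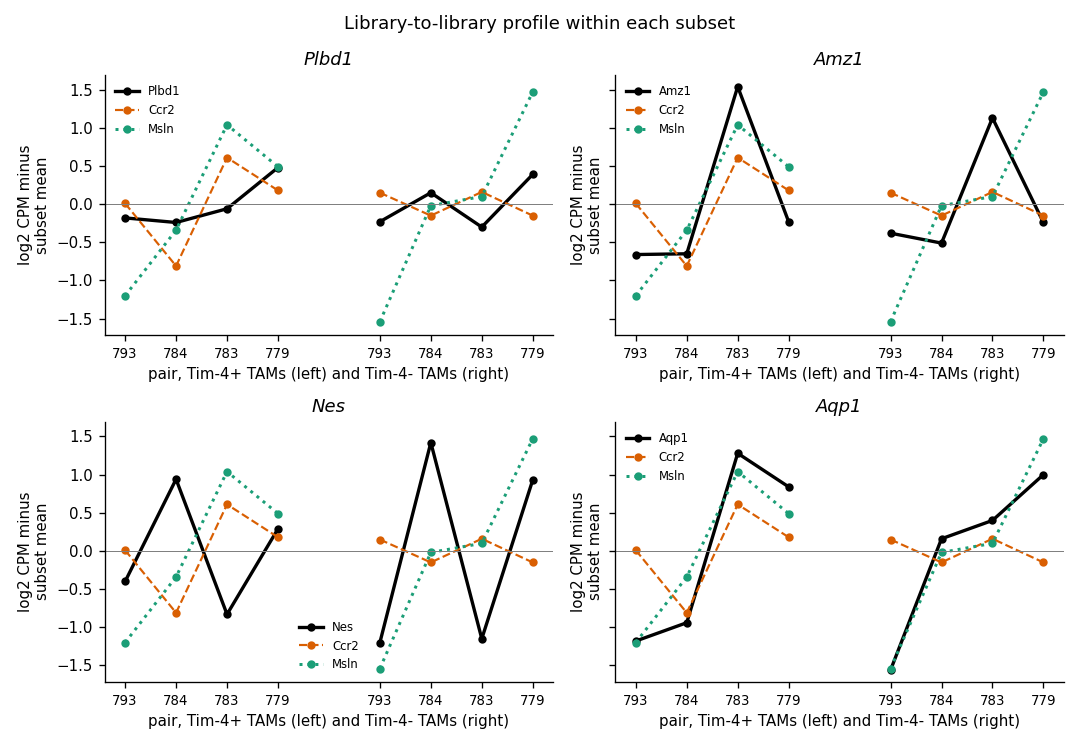
Log2 CPM minus the subset mean in each library for each member (black, solid), Ccr2 (orange, dashed) and Msln (green, dotted), with Tim-4+ libraries on the left and Tim-4- libraries on the right of each panel. Aqp1 and Msln both start lowest in pair 793, Amz1 peaks in pair 783, Nes peaks in pairs 784 and 779, and Plbd1 varies least of the 4 members.

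**Figure D4:**
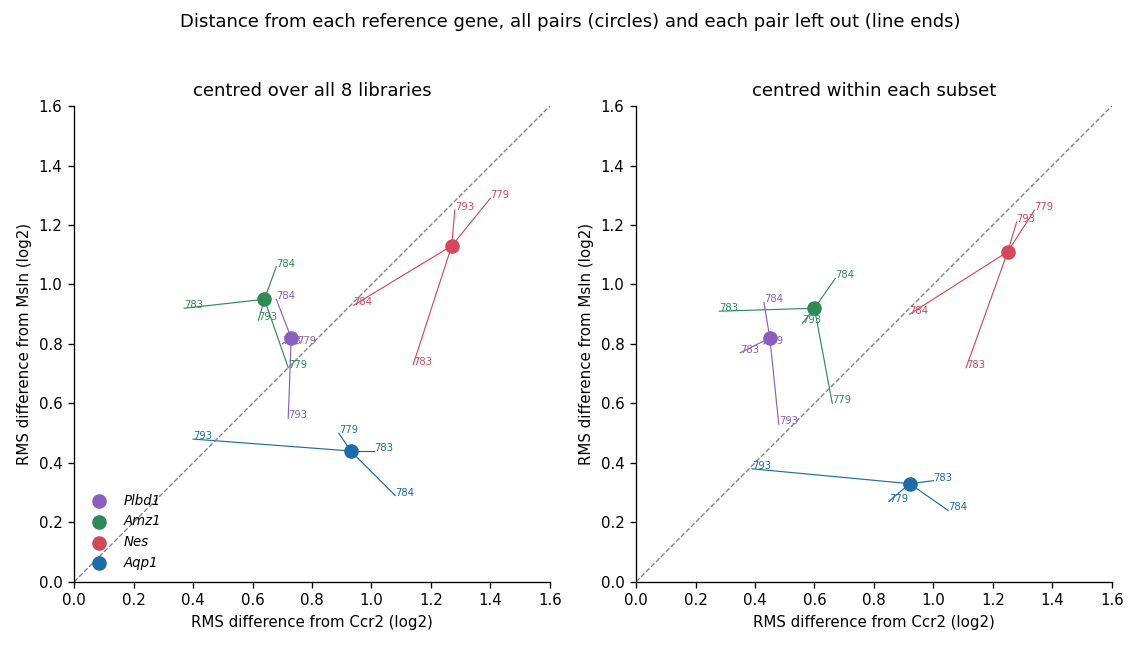
RMS difference of each member from Ccr2 (horizontal) and from Msln (vertical), in log2 units, centered over 8 libraries on the left and within each subset on the right, where points under the dashed line are nearer to Msln. Circles use all 4 pairs and line ends use 3, labeled by the pair left out, and the Aqp1 line without pair 793 crosses the dashed line on the left and ends beside it on the right.

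The members did not form 1 profile among themselves. The RMS difference between them ran from 0.83 between Amz1 and Aqp1 to 1.56 between Amz1 and Nes, and Nes and Aqp1 were 1.27 apart, more than Ccr2 and Msln were. Centered within the subsets, Amz1 and Nes were also 1.56 apart.

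Marker genes of other cells moved between the same libraries. Of 15 genes of mesothelium and ID8 tumor cells, 14 were called lower in Tim-4+ TAMs and 0 higher, with a median log2 fold change of -2.17 against 0.0 for all tested genes. The count was 1 without the pairing, 1 without pair 784, 9 without pair 793 or pair 779 and 4 without the filter on low counts. Upk3b, a uroplakin gene of mesothelium, averaged 49.4 ± 17.3 CPM in Tim-4+ and 283 ± 194 CPM in Tim-4- libraries (SD, n = 4), and the keratin gene Krt19 averaged 65.2 ± 40.8 and 308 ± 171 CPM.

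The summed level of those 15 genes was 133, 237, 487 and 277 CPM in the Tim-4+ libraries of pairs 793, 784, 783 and 779 and 532, 1582, 1052 and 2440 CPM in the Tim-4- libraries. Pair 793 was the lowest in both subsets, as it was for Aqp1. Centered within the subsets, the median distance from the 12 genes of this list averaging 10 CPM or more was 0.59 for Aqp1, against 1.07 over all genes at that level. It was 0.86 for Amz1, the same as over all genes, 1.04 for Nes, against 0.98, and 0.73 for Plbd1, against 0.39. Over the 8 libraries, with the fall included, the nearest gene of this list was Upk3b for Plbd1 (0.53) and Muc16 for Amz1 (0.64). It was Upk1b for Nes (0.67) and Msln for Aqp1 (0.44). The list medians were then 0.77, 0.95, 1.17 and 0.78 in the same order of members. Upk1b lay at 31.7, 115, 21.1 and 236 CPM in Tim-4- libraries, high in pairs 784 and 779 as Nes was. The part of mesothelial or tumor RNA in the levels of the members was not tested.

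Of 18 genes of monocyte-derived peritoneal macrophages, 11 were called lower and 1 higher, with a median log2 fold change of -1.59. The count of lower genes was 1 without the pairing and 3 without pair 784. Cd74, the chaperone of MHC class II, was lower (log2 fold change -1.53, adjusted p = 0.0185, edgeR), Fn1, which encodes fibronectin, was higher (1.02, adjusted p = 0.0306), and F13a1, a clotting factor subunit gene, had a log2 fold change of -0.22 (adjusted p = 0.505). Centered within the subsets, the median distance from the 14 genes of this list averaging 10 CPM or more was 0.84 for Plbd1, 0.89 for Amz1, 1.58 for Nes and 1.25 for Aqp1, in each case above the median over all genes at that level (0.39, 0.86, 0.98 and 1.07). Those medians over all genes lay near each member's own spread there (0.28, 0.79, 0.96 and 1.02). A list of genes that vary more can lie above them by that alone. Nothing is therefore read from a list median above them, here or for the mesothelial list. Over the 8 libraries the nearest gene of this list was Ccr2 for every member, and the list medians were 1.43, 1.39, 1.8 and 1.84.

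Nes and Aqp1 are also used as genes of blood vessels, and Nes as a gene of neural progenitors. Of 16 endothelial genes, 8 were tested, 4 were called lower (Flt1, Plvap, Esam and Robo4) and 1 higher (Egfl7). The count of lower genes was 0 without the pairing, and it was 1 without pair 793, 0 without pair 784 or pair 779 and 2 without the filter on low counts. Sox17 and Cldn5 had 0 counts in all 8 libraries, and 9 of the 16, Tek, Tie1, Emcn and Erg among them, stayed under 1 CPM in every library. The summed level of the 16 genes was 13.1 to 32.7 CPM in Tim-4+ and 32.1 to 108 CPM in Tim-4- libraries. Its largest parts were Esam, Robo4 and Flt1, which averaged 32.1, 16.4 and 11.9 CPM in Tim-4- libraries. Cdh5, Kdr and Vwf averaged 2.1, 0.475 and 2.07 CPM there and were not called (adjusted p = 0.106, 0.341 and 0.106, edgeR). The part of endothelial RNA in the levels of Nes and Aqp1 was not tested. Of 8 neural progenitor and glial genes, Sox2, Olig2 and Sox10 had 0 counts in all 8 libraries, and Tubb3 and S100b had adjusted p of 0.363 and 0.837 (edgeR).

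Erythroid genes stood out in pair 783, the pair in which Amz1 was high and Aqp1 was highest among Tim-4+ libraries. The summed level of 8 erythroid genes (1 more was listed and not found) was 255 CPM in the Tim-4+ and 65.6 CPM in the Tim-4- library of that pair, against at most 3.87 CPM in the other 6 libraries. Aqp1 lay at 8.94 CPM in the Tim-4+ library of this pair and at 46.8 CPM in the Tim-4- library. That is the direction for which it was chosen, so nothing is read from it. In that Tim-4+ library the globin genes Hbb-bs and Hba-a1 lay at 180 and 49.7 CPM. The study's methods name the Globin version of a library kit and do not say how far globin RNA was reduced. The sum is therefore not a plain measure of red cells, and the part of red cell RNA was not tested.

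Calls in the other marker lists were as follows. Resident peritoneal macrophage genes were higher, with 15 of 17 called, and among general macrophage genes 2 of 12 were called higher and 1 lower. Fibroblast and muscle genes gave 1 lower call of 10 tested (Dcn, decorin), dendritic cell genes 1 lower and 1 higher of 10, B cell genes 1 lower of 6, T and NK cell genes 1 lower of 1 (Cd4), granulocyte and mast cell genes 1 lower of 5 (Mcpt4, a mast cell protease), and erythroid genes 1 higher of 4 (Hba-a1). Of the 9 T and NK cell genes listed, 8 stayed under 1 CPM in every library, so the call of Cd4 does not describe T cells.

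Relatives of the members showed no common direction. Among 4 tested aquaporin genes other than Aqp1, Aqp9, a channel for water and glycerol, was higher in Tim-4+ TAMs (31.8 ± 16.6 against 7.38 ± 4.89 CPM, log2 fold change 2.12, adjusted p = 0.00804), and Aqp2, the channel of the kidney collecting duct, was lower (0.382 ± 0.228 against 1.81 ± 1.82 CPM, log2 fold change -1.84, adjusted p = 0.0345, edgeR). Aqp5 had a log2 fold change of -2.11 and an adjusted p of 0.0985, and Aqp11 had -0.8 and 0.296 (edgeR).

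Of 7 tested intermediate filament and lamin genes other than Nes, 1 was called, Prph, which encodes the neuronal filament peripherin (log2 fold change -2.34, adjusted p = 0.0356, edgeR). Vim, the filament with which nestin is known to assemble, averaged 1797 ± 443 CPM in Tim-4+ and 1749 ± 429 CPM in Tim-4- libraries, with a log2 fold change of 0.04 (adjusted p = 0.907). Lmnb1, a nuclear lamina gene, had -0.7 and an adjusted p of 0.00867, which is under a 2-fold change. Lmna, Lmnb2, Synm and Des had log2 fold changes of -0.27, -0.18, -1.05 and -0.63, with adjusted p of 0.208, 0.537, 0.378 and 0.726 (edgeR).

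Plbd2, the relative of Plbd1, averaged 210 ± 9.66 CPM in Tim-4+ and 166 ± 5.86 CPM in Tim-4- libraries (log2 fold change 0.34, adjusted p = 0.0637, edgeR). Amz2, the relative of Amz1, averaged 28.5 ± 2.8 and 25.7 ± 2.7 CPM (log2 fold change 0.15, adjusted p = 0.339). Neither was called, and in both the mean was on the other side from that of the member.

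The neighbors of the members on the chromosome were mostly not called. Within 100 kb, 2 genes near Plbd1, 4 near Amz1, 7 near Nes and 2 near Aqp1 were tested, and 1 of these 15 was called, 6430584L05Rik near Aqp1, at 0.0766 against 0.444 CPM (log2 fold change -2.92, adjusted p = 0.0377, edgeR). Gna12, a G protein subunit gene, overlaps Amz1 on the opposite strand and averaged 89.8 ± 38.2 CPM in Tim-4+ and 166 ± 67.0 CPM in Tim-4- libraries, with a log2 fold change of -0.87 and an adjusted p of 0.00804. Gm44401 overlaps Plbd1 on the opposite strand and averaged 0.0831 and 0.351 CPM. The library kit was a stranded one, but the sources do not state if reads were counted by strand. Reads that fell on both of 2 overlapping genes may be among the ambiguous reads, which were left out. How far the overlaps changed the counts of Amz1 and Gna12, or of Plbd1 and Gm44401, was not tested. No annotated gene overlaps Nes or Aqp1.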

How the data were processed

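RNA-Seq libraries of Tim-4+ and Tim-4- TAMs (4 pairs) were sequenced on 2 lanes each. They were made with a stranded total RNA kit in its Globin version. The authors deposited whole-number counts of reads per gene for each lane, without normalization. The study's methods name TopHat 2.0.13 for alignment and Cuffdiff 2.2.1 for expression with hg19 as reference, while the submitters' processing notes name GRCm38 and mm10. The read counter, its handling of strand and its version are not given in the sources used here. Summary lines of reads on no gene (4.59% to 6.83%), ambiguous reads (3.42% to 4.3%) and reads matching several places (20.26% to 24.5%, but 9.11% in lane 2 of the Tim-4- library of pair 779) were left out of library sizes and tests.

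For pair 793, lane 1 of the Tim-4- library gives symbols in place of identifiers, with Timd4 in the first row. They were joined by order, and 96.9% of 53617 symbols matched. Names and coordinates are from GENCODE M21 (GRCm38), which held 98.4% of identifiers, and promoters are from RefSeq (GRCm38.p6), in which all 4 members were found. The lanes were summed. A gene was tested where 4 or more libraries held 10 counts or more, with edgeR 4.0.16 (R 4.3.3), quasi-likelihood test, TMM scaling, robust estimation, a block for the pair and adjustment by Benjamini-Hochberg over the 16861 genes. Pairing comes from the numbers in the labels (another listing by the study appears to number the same pairs in reverse, which would change their names only), and the paired libraries, less the subset means, had r = 0.277 to 0.498 across genes. CPM values are TMM-scaled counts, log2 CPM used a prior count of 2, and fold changes of the members carry no test. Standard errors are the fold change divided by the root of the F statistic.

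The members and lists were chosen with earlier results of these data known. Named genes were the members, Ccr2, Msln and Timd4, the 3 genes nearest to each member and its neighbors in the ranking (mean of at least 10 CPM), the first and the 3 most abundant genes of each marker list, tested relatives, and overlapping or called genes within 100 kb. Flt1, Plvap, Esam, Robo4, Egfl7, Kdr, Vwf and Muc16 were named after their values were seen. So were the markers named at 0 or under 1 CPM and those named as single calls. Alternatives were RLE factors, total counts, other filters, no block, DESeq2 1.42.0, lane 2 alone, joining by symbol, a prior count of 0.5, adjusted p alone and each pair left out. Leaving out the symbol-listed lane was added after the data were seen.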

Additional observations from a re-analysis of the deposited data

Results flagged for a closer look

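In 14 groups of 4 libraries (the 4 members, Ccr2, Msln and Timd4 in each subset), 2 groups held a library whose gap to the nearest other passed Dixon's critical value at 95% for 4 values, as a share of the group's range. Both were Amz1 in pair 783, with 5.14 CPM in the Tim-4+ library (gap 0.905 of the range) and 34.4 CPM in the Tim-4- library (gap 0.901 of the range). Chance flags about 1 in 20 groups of normally distributed values. The rule was applied to CPM without a log scale, which need not be so distributed, and the 2 libraries share a pair. Erythroid genes were also highest in this pair, at 255 CPM and 65.6 CPM in sum, and Fcrls was highest there in both subsets. So was F13a1, at 3192 and 2298 CPM, but the summed monocyte-derived genes were not. In Tim-4+ libraries the summed resident macrophage genes were lowest in this pair, at 18080 CPM against 33997 CPM or more. In Tim-4- libraries that sum was 4280 CPM in this pair and lowest in pair 779, at 3749 CPM. The part of any of these in the Amz1 level was not tested.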

How the results depend on the processing

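The members were lower in Tim-4+ TAMs under all 13 alternatives fitted, with log2 fold changes of -2.83 to -2.35 for Plbd1, -3.51 to -3.0 for Amz1, -3.56 to -2.99 for Nes and -3.62 to -2.91 for Aqp1, and the moves to -2.83 and -3.51 came with total counts per library. The pairing (replicate block) decided the number of calls. With no replicate block, 80 genes were lower and 127 higher, and 1 mesothelial, 1 monocyte-derived and 0 endothelial genes were lower. Total counts gave 1938 lower and 398 higher. Without the filter on low counts, 4 mesothelial and 2 endothelial genes were lower. Adjusted p alone gave 1512 higher genes. With each pair left out in turn, the number of lower genes ran from 51 to 1446, of higher genes from 67 to 775, of mesothelial genes from 1 to 15, of endothelial genes from 0 to 4 and of monocyte-derived genes from 3 to 11. The cause was not tested, except that fewer libraries entered. The sign of the distance to Msln minus that to Ccr2 turned for Plbd1 and Aqp1 without pair 793 (-0.17 and 0.08) and for Amz1 without pair 779 (-0.01, and -0.07 within the subsets). Over the pairs left out, that difference ran from -0.17 to 0.27 for Plbd1, -0.01 to 0.55 for Amz1, -0.41 to -0.01 for Nes and -0.79 to 0.08 for Aqp1, and within the subsets from -0.07 to 0.63 for Amz1. With 4 pairs and 1 library per subset and pair, profiles over 8 libraries are coarse, and Amz1, Nes and Aqp1 in Tim-4+ TAMs rest on as few as 52, 68 and 76 counts.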
